A study of Mus musculus with 9 samples.

Results

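The muscle miRNAs miR-1, miR-133 and miR-206 were examined in small RNA from extracellular vesicles (EVs) of mouse bronchoalveolar lavage fluid (BALF). Every row of the authors' table that belonged to the hairpins mir-1a, mir-133a, mir-133b or mir-206 was taken, with both arms, all genomic copies and all isomiRs. These were 15 of 1308 rows, of which 6 came from mir-1a, 8 from mir-133a and 1 from mir-206, while mir-133b had 0 rows. Both genomic copies of mir-1a and of mir-133a carried identical values, so that the 15 rows held 8 distinct sets of values. An isomiR is a sequence variant of a miRNA. The isomiRs with rows of their own here have a 5′ end a few bases from the annotated end, and the row carries a suffix such as _+_1 for a shift of 1 base.

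The 9 samples were pools of BALF from female C57BL/6J mice of 8 to 10 weeks that breathed filtered air (FA), 1 ppm or 2 ppm ozone (O3) for 3 h in a whole body chamber, with lavage on the following day. There were 3 pools per exposure, each from 4 mice in FA and from 3 mice in the O3 groups, so that pool size and O3 cannot be told apart. The pools were numbered by their order of deposition only. The study's supplement lists a single chamber session for each O3 concentration, so that session and concentration cannot be told apart either, and more than 1 for FA, without naming the pools of each. The p-values below measure the spread between pools as listed and rest on 3 pools per exposure.

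In vertebrates, miR-1, miR-133 and miR-206 are known as myomiRs, since striated muscle holds them at far higher levels than most other tissues. miR-1 and miR-133a come from shared primary transcripts in heart and skeletal muscle, and miR-206 and miR-133b come from another locus that is used mainly in skeletal muscle. In myoblasts, miR-1 and miR-206 are known to promote differentiation and miR-133 proliferation. A miRNA recognises its target mRNAs mainly through its seed, bases 2 to 8 from the 5′ end, and miR-1 and miR-206 share a seed, so that they can bind the same sites.

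In mm9, the build to which the authors aligned the reads, Mir206 lies at chr1:20669091-20669163 on the plus strand, and Mir133b follows it 3686 bases downstream at chr1:20672850-20672968. One copy of each of the other hairpins lies on chromosome 2, Mir1a-1 at chr2:180123753-180123829 and Mir133a-2 at chr2:180133084-180133187, both on the plus strand and 9254 bases apart. None of these 4 hairpins overlaps another gene in the GENCODE annotation of mm9. The arms with rows in the table were miR-1a-3p, miR-133a-3p, miR-133a-5p and miR-206-3p, and 1 of these 4 was matched in the RefSeq miRNA table of GRCm38.p6. The mature sequence of that arm, miR-206-3p, is shown because it was the only one matched, with the seed in capitals:
miR-206-3p: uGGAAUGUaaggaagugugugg

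The values are reads per 1000000 miRNA reads (RPMMM), so that each pool sums to the same total. From the spacing of low values, the depth of the FA pools was estimated at 535535 to 773268 miRNA reads, that of the 1 ppm O3 pools at 555104 to 860953 and that of the 2 ppm O3 pools at 281542 to 300915. The lowest value listed above 0 was between 13.6 and 18.9 RPMMM in FA, between 11.8 and 18.9 RPMMM after 1 ppm O3 and between 34.3 and 37.3 RPMMM after 2 ppm O3, about 10 reads at the estimated depths, which were sought where the lowest value was near 10 reads. Between 68.3% and 85.5% of low values lay on steps of whole reads at these depths, and a further 5.33% to 9.80% lay only midway between them. A miRNA listed at 0 was therefore known only to be under this minimum, which was higher after 2 ppm O3. The share of all rows above 0 ranged from 57.1% to 60.9% in FA, from 54.8% to 65.1% after 1 ppm O3 and from 35.9% to 38.7% after 2 ppm O3.

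miR-1a-3p was the most abundant of the muscle miRNAs in the EVs and the only one listed above 0 in every FA pool and every 1 ppm O3 pool. Each of its copies was listed at 70.0, 419 and 2231 RPMMM in FA pools 1, 2 and 3. After 1 ppm O3 the levels were 89.9, 73.0 and 61.6 RPMMM. After 2 ppm O3 miR-1a-3p was listed at 89.3 RPMMM in pool 2 and at 0 in pools 1 and 3. FA pools 2 and 3 were thus above all 6 O3 pools, while FA pool 1 lay within the range of the 1 ppm O3 pools and below 2 ppm O3 pool 2.

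Outside FA pools 2 and 3, these levels rest on few reads. Per copy they corresponded to 54.0, 324 and 1195 reads in the FA pools, to 40.5 to 54.0 reads after 1 ppm O3 and to 25.8 reads in 2 ppm O3 pool 2. The value of 40.5 reads in 1 ppm O3 pool 2 lay midway between whole reads. Among all 1308 rows, miR-1a-3p stood at rank 404, 164 and 73 by level in FA pools 1, 2 and 3, at ranks between 354 and 413 after 1 ppm O3 and at rank 317 in 2 ppm O3 pool 2.

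The shifted forms of miR-1a-3p were above 0 in 2 of the 9 pools. miR-1a-3p_+_1 was listed at 51.4 RPMMM in FA pool 3 and at 13.4 RPMMM in 1 ppm O3 pool 3, and at 0 elsewhere. miR-1a-3p_-_1 was above 0 only in FA pool 3, at 36.4 RPMMM. Together they made up 3.78% of the listed miR-1a-3p level in FA pool 3 (95% Wilson interval from 3.10% to 4.61%, for counting error only). In 1 ppm O3 pool 3 the share was 17.8% (23 of 129 reads of both copies, interval from 12.2% to 25.3%). No row was listed for the opposite arm, miR-1a-5p.

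For miR-133a-3p, the form with a 5′ end shifted by 1 base was the more abundant one. A shifted 5′ end changes the bases that make up the seed. miR-133a-3p_+_1 was listed at 32.4, 78.9 and 408 RPMMM in FA pools 1, 2 and 3. After O3 it was above 0 only in 1 ppm O3 pool 3, at 13.9 RPMMM, and at 0 in the other 5 pools. Every FA pool was above every O3 pool as listed, but FA pool 1 lay below the lowest value that any of the 2 ppm O3 pools listed, so that this level was not detectable there.

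The annotated form, miR-133a-3p, was listed at 67.9 and 236 RPMMM in FA pools 2 and 3 and at 0 in FA pool 1 and in all 6 O3 pools. The _+_1 form made up 53.7% of the listed miR-133a-3p reads in FA pool 2 (122 of 227 reads of both copies, 95% Wilson interval from 47.2% to 60.1%). In FA pool 3 its share was 63.4% (437 of 689 reads, interval from 59.8% to 66.9%). In 1 ppm O3 pool 3 it was 41.4% (24 of 58 reads, interval from 29.6% to 54.2%), and the rest there was the _+_2 form. By comparison, a shifted form was the highest row of 14.4% of the 340 arms above 0 in FA pool 2 and of 12.3% of the 341 arms in FA pool 3. No count of molecules was used, so these intervals cover counting error only. The remaining rows of mir-133a were low. miR-133a-3p_+_2 was above 0 only in 1 ppm O3 pool 3, at 19.8 RPMMM. On the 5′ arm, miR-133a-5p_-_1 was listed at 14.9 and 23.3 RPMMM in FA pools 1 and 3 and at 0 elsewhere.

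miR-206-3p, the skeletal muscle miRNA, was listed at 36.2 and 57.9 RPMMM in FA pools 2 and 3, from 28.0 and 31.0 reads, and at 0 in FA pool 1 and all O3 pools. Both values were above the lowest values of the 1 ppm O3 pools. Against the 2 ppm O3 pools, the level of FA pool 3 exceeded all of their lowest values, while that of FA pool 2 fell within their range. In the order of levels in FA pool 3, miR-1a-3p was followed by miR-133a-3p_+_1, miR-133a-3p and miR-206-3p, and FA pool 2 gave the same order.

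**Figure D1:**
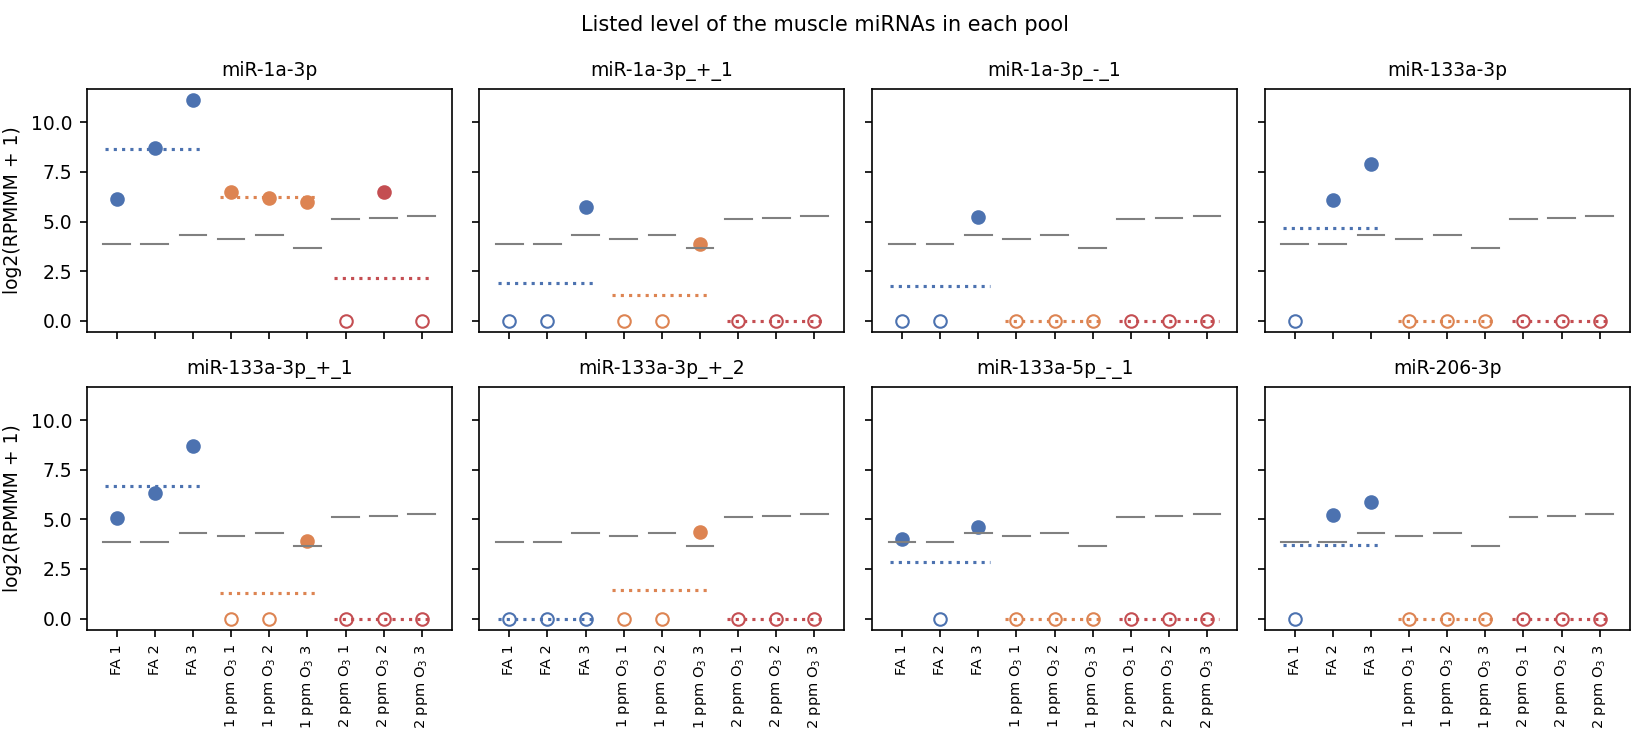
Level of the 8 distinct muscle miRNA rows in each of the 9 pools, as log2(RPMMM + 1). Filled circles are values above 0, open circles are rows listed at 0, gray bars are the lowest value listed above 0 in that pool, and dotted lines are group means on this scale. In 7 of the 8 panels the highest circle is FA pool 3.

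Summed over all rows of each hairpin, mir-1a held 140, 838 and 4638 RPMMM in FA pools 1, 2 and 3. mir-133a held 94.6, 294 and 1333 RPMMM in the same pools. The ratio of mir-133a to mir-1a was 0.676, 0.350 and 0.287 in these pools, and 0.450 in 1 ppm O3 pool 3, the only O3 pool with mir-133a above 0. All 15 rows together made up 0.0235%, 0.117% and 0.603% of the miRNA reads in FA, and 0.0217% or less in each O3 pool.

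The muscle miRNA levels varied widely among the FA pools. miR-1a-3p was 31.9-fold higher in FA pool 3 than in FA pool 1 and 5.98-fold higher in FA pool 2 than in FA pool 1. Its mean in FA was 907 ± 1160 RPMMM (SD, n = 3 pools), a coefficient of variation of 128%, and that of miR-133a-3p_+_1 was 173 ± 204.6 RPMMM, a coefficient of variation of 118%. These were ranks 18 and 22 among the 446 tested rows with a level above 0 in FA, whose median was 26.2%. FA pool 3 was the highest of the 9 pools for 7 of the 8 distinct muscle miRNA rows, whereas it was the highest for 18.0% of all 1308 rows. By the ratio of FA pool 3 to the higher of the other FA pools, miR-1a-3p (5.32) took rank 1 and miR-133a-3p_+_1 (5.17) rank 3 of 421 tested rows above 0 in both, each tied with its copy. Tested rows were those with a mean above 50 RPMMM, and without FA pool 3 the mean of miR-133a-3p_+_1 was 15.7 RPMMM. Its ranks here were thus in part set by that filter and are a description only.

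**Figure D2:**
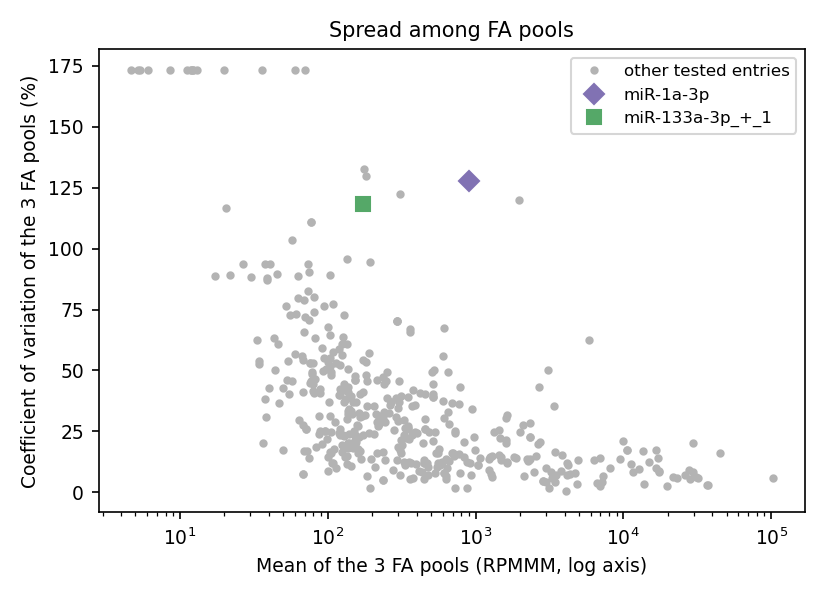
Coefficient of variation of the 3 FA pools, in percent, against their mean in RPMMM on a log axis, with 1 point per tested row. miR-1a-3p, at 128%, and miR-133a-3p_+_1, at 118%, lie far above the median of 26.2%. miR-133a-3p_+_1 is among the tested rows only through FA pool 3.

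To ask whether O3 altered these levels, a linear model with moderated variances (limma) was applied to log2(RPMMM + 1). It took in the 461 rows whose mean over all pools exceeded 50 RPMMM, and p-values were adjusted over all of them by the Benjamini-Hochberg method. Rows that changed 2-fold or more with an adjusted p under 0.05 counted as differentially expressed (DE), and are referred to as called. Of the 15 muscle miRNA rows, 4 had a mean above 50 RPMMM, the copies of miR-1a-3p and of miR-133a-3p_+_1, each pair with the same values. The other 11 rows were not tested. miR-133a-3p_+_1 passed this filter only through FA, with a mean of 2.32 RPMMM over the O3 pools, and without FA pool 3 its mean would have been 15.7 RPMMM. miR-1a-3p had a mean of 52.3 RPMMM over the O3 pools alone.

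After 2 ppm O3, both tested miRNAs were lower than in FA and DE. The mean of miR-1a-3p was 907 ± 1160 RPMMM in FA and 29.8 ± 51.5 RPMMM after 2 ppm O3 (SD, n = 3 pools), a 30.5-fold difference of means. The model compares means of log2(RPMMM + 1), in which pools listed at 0 weigh more, and gave miR-1a-3p a log2 fold change of -6.50 with a standard error of 1.79 (adjusted p = 0.0123 from limma). For miR-133a-3p_+_1, listed at 0 in all 3 pools after 2 ppm O3, it was -6.69 with a standard error of 2.04 (adjusted p = 0.0202 from limma). Since these 3 pools were all listed at 0, their spread entered the model as 0 and was not measured. The median log2 fold change of all tested rows was -0.83, and relative to it the values were -5.67 and -5.86. All 4 tested muscle miRNA rows were thus called, where 43.6% of all tested rows were called in either direction. These rows are 2 distinct miRNA forms, and miR-133a-3p_+_1 entered the test only by its level in FA. As listed, every 2 ppm O3 pool was below every FA pool for miR-133a-3p_+_1, as for 48.2% of the tested rows, but not for miR-1a-3p. Since 0 after 2 ppm O3 means only a level under 34.3 to 37.3 RPMMM, the order against FA pool 1, at 32.4 RPMMM, is not known.

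The size of both fold changes depended on how values of 0 were treated. With 10 added before the log in place of 1, the log2 fold change of miR-1a-3p was -4.31 and that of miR-133a-3p_+_1 was -3.54. With values below 40 RPMMM set to 40, above the minimum of every pool, they were -2.95 (adjusted p = 0.0173 from limma) and -1.44 (adjusted p = 0.0801 from limma), so that miR-133a-3p_+_1 was no longer DE.

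Both calls also depended on single pools. Without FA pool 3, neither miRNA was DE after 2 ppm O3, with log2 fold changes of -5.27 for miR-1a-3p (adjusted p = 0.0570 from limma) and -5.69 for miR-133a-3p_+_1 (adjusted p = 0.123 from limma). The mean of miR-1a-3p in FA was then 245 RPMMM in place of 907 RPMMM, and 8.22 times that after 2 ppm O3 in place of 30.5 times. The call of miR-1a-3p was also lost without 2 ppm O3 pool 3 (log2 fold change -5.41, adjusted p = 0.0543 from limma). That of miR-133a-3p_+_1 was also lost without FA pool 1 (-7.50, adjusted p = 0.0573 from limma) and without FA pool 2 (-6.87, adjusted p = 0.0855 from limma).

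**Figure D3:**
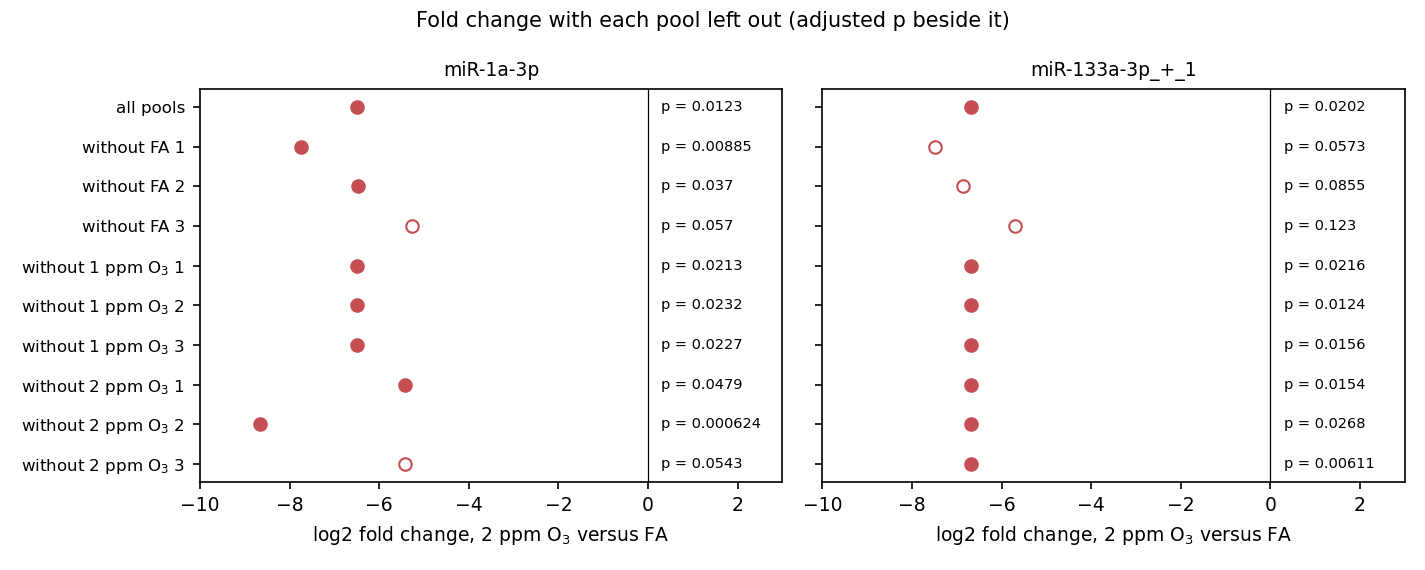
Log2 fold change between 2 ppm O3 and FA of miR-1a-3p and miR-133a-3p_+_1, with all pools and with each pool left out in turn. Filled circles are DE, open circles are not, and the adjusted p from limma stands at the right. Without FA pool 3 both circles are open, at -5.27 and -5.69.

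After 1 ppm O3, neither muscle miRNA was DE against FA. The mean of miR-1a-3p was 74.8 ± 14.2 RPMMM after 1 ppm O3 (SD, n = 3 pools). From the means of the log2 values, its log2 fold change was -2.44 (95% interval from -6.46 to 1.59, adjusted p = 0.480 from limma). That of miR-133a-3p_+_1 was -5.39 (95% interval from -9.98 to -0.79, adjusted p = 0.118 and unadjusted p = 0.0262 from limma). Its size depended on how values of 0 were treated, since after 1 ppm O3 this row was above 0 only in pool 3, at 13.9 RPMMM. With 10 added before the log it was -3.12, and with values below 40 RPMMM set to 40 it was -1.44. Of the 4 rows, 0 were called by limma and 2, the copies of miR-133a-3p_+_1, had an unadjusted p under 0.05, where 13.2% of all tested rows were called and 27.3% had an unadjusted p under 0.05. As listed, every 1 ppm O3 pool was below every FA pool for miR-133a-3p_+_1, as for 18.4% of the tested rows. The median log2 fold change of all rows was -0.08.

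The miR-133a-3p_+_1 result at 1 ppm O3 depended on the settings, with DE in 3 of 18 alternatives and not in the other 15. It was DE when the variances were moderated without a trend on the level (adjusted p = 0.0279 from limma). It was also DE when only FA and 1 ppm O3 pools were fitted (adjusted p = 0.0430 from limma). The last was the fit without 2 ppm O3 pool 3 (adjusted p = 0.0273 from limma), a pool outside this comparison. Over all alternatives its adjusted p from limma ranged from 0.0273 to 0.426. For miR-1a-3p, the means in FA and after 1 ppm O3 differed 12.1-fold with all pools and 3.27-fold without FA pool 3.

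Between 2 ppm and 1 ppm O3, neither miRNA was DE. The log2 fold change of miR-1a-3p was -4.06 (95% interval from -8.09 to -0.04, adjusted p = 0.0917 from limma). That of miR-133a-3p_+_1 was -1.30 (95% interval from -5.89 to 3.29, adjusted p = 0.599 from limma), from levels near or below the lowest listed values. Of the 4 rows, 0 were called by limma and 2, the copies of miR-1a-3p, had an unadjusted p under 0.05, where 33.6% of all tested rows were called and 53.6% had an unadjusted p under 0.05. Without 2 ppm O3 pool 2, the only pool of that group in which miR-1a-3p was above 0, its log2 fold change was -6.23 and it was DE (adjusted p = 0.00554 from limma). The pools left in that group were then all listed at 0, so that their spread was not measured. With all 9 pools, the log2 fold change of miR-1a-3p was -1.97 with 10 added before the log. It was -0.50 with values below 40 RPMMM set to 40 (adjusted p = 0.681 from limma). The comparisons share pools with each other, FA in the first and second and the O3 groups in the third.

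**Figure D4:**
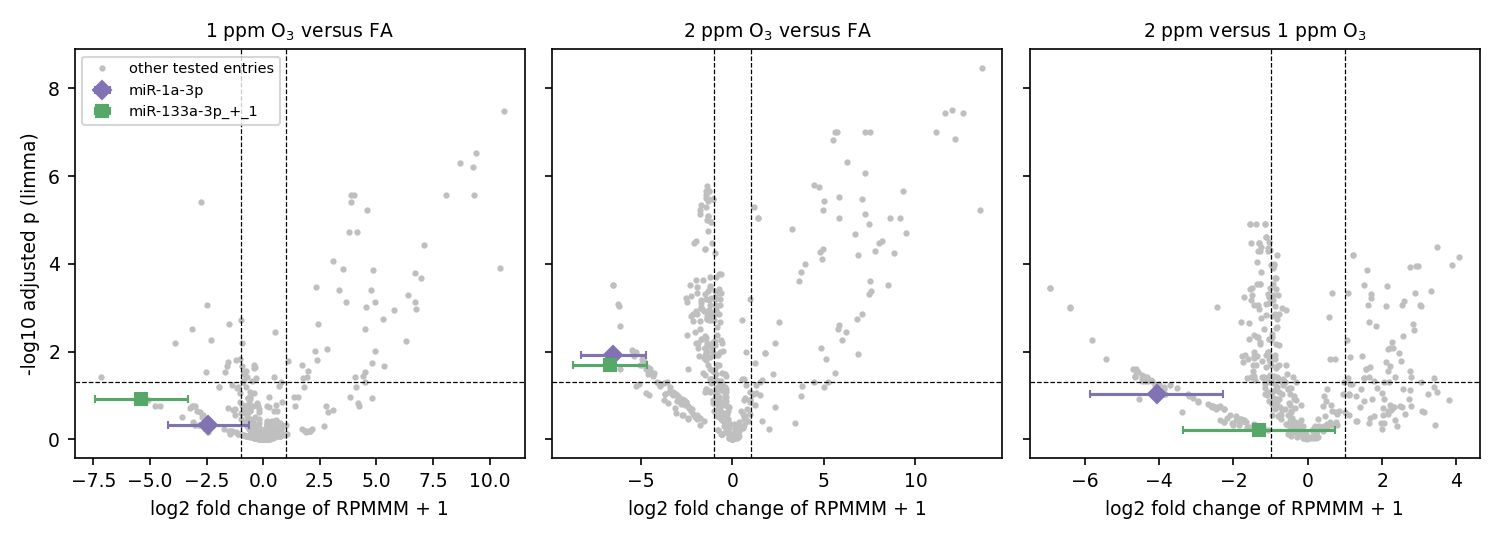
Adjusted p from limma, as -log10, against the log2 fold change of RPMMM + 1 for the 461 tested rows in the 3 comparisons, with the standard error drawn for miR-1a-3p and miR-133a-3p_+_1. Dashed lines mark the thresholds for DE, which both miRNAs pass only in the comparison of 2 ppm O3 with FA, at -6.50 and -6.69.

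Among other miRNAs of striated muscle, mir-486 was above the lowest listed values in all 9 pools, whereas mir-208b was near them. Of the hairpins mir-208a, mir-208b, mir-499 and mir-486, 2 of 4 had rows, and the myosin gene miRNAs mir-208a and mir-499 had none. mir-208b, another miRNA of a myosin gene, was listed at 27.2 and 22.4 RPMMM in FA pools 1 and 3 and at 0 elsewhere. mir-486, which is abundant in muscle and in red cells, held between 385 and 738 RPMMM in FA, between 76.5 and 190 RPMMM after 1 ppm O3 and between 91.4 and 469 RPMMM after 2 ppm O3, with its highest level in FA pool 3.

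Markers of other cells moved in part with FA pool 3. The erythroid hairpins mir-451 and mir-144, both present, summed to 499.2, 468 and 1085 RPMMM in FA pools 1, 2 and 3, to between 73.2 and 153 RPMMM after 1 ppm O3 and to between 66.5 and 480 RPMMM after 2 ppm O3, and mir-144 was at 0 in FA pool 2 and every O3 pool. The smooth muscle and fibroblast hairpins mir-143 and mir-145, both present, summed to 5469, 5204 and 11943 RPMMM in the FA pools, to between 6354 and 9320 RPMMM after 1 ppm O3 and to between 5659 and 6034 RPMMM after 2 ppm O3. The higher sum in FA pool 3 came from mir-143, at 4172, 3529 and 10285 RPMMM in FA pools 1, 2 and 3, whereas mir-145 was at 1297, 1675 and 1658 RPMMM. The rows of mir-145 differed in this, since miR-145-3p alone was 4.50-fold higher in FA pool 3 than in the higher of the other FA pools. The 7 epithelial hairpins, all present and none at 0, summed to between 67692 and 73307 RPMMM in FA, 54023 and 58979 RPMMM after 1 ppm O3 and 27749 and 32117 RPMMM after 2 ppm O3. Of these, mir-205 overlapped between the O3 groups (864 to 911 RPMMM after 1 ppm, 731 to 1017 RPMMM after 2 ppm). Between 2 ppm and 1 ppm O3, 68.5% of all tested rows had a negative log2 fold change, and their median was -0.69. The median log2 fold change of all tested rows between 2 ppm O3 and FA was -0.83. The 3 leukocyte hairpins, all present, ranged from 1431 to 2129, from 1848 to 2362 and from 1285 to 1463 RPMMM, with mir-150 above 0 only in 1 ppm O3 pool 3. The endothelial hairpin mir-126 ranged from 112 to 314, from 445 to 938 and from 764 to 912 RPMMM. The part of these cells in the muscle miRNA levels was not tested, and a change in vesicles from muscle cannot be told apart from a change in RNA per vesicle.

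The miRNAs most like miR-1a-3p in pattern were found by the root mean square difference of log2(RPMMM + 1), centred on its mean, over the 9 pools. Among 227 mature miRNAs, these were miR-199a-5p (1.39), miR-142-3p (1.41) and miR-455-3p (1.74), where the median was 3.21. All of them were listed at 0 in 2 ppm O3 pools 1 and 3, as was miR-1a-3p. In FA pools 1, 2 and 3 they differed in spread, with miR-199a-5p at 15.6, 40.7 and 174 RPMMM, miR-142-3p at 123, 182 and 151 RPMMM and miR-455-3p at 46.7, 38.8 and 87.8 RPMMM. The points of this comparison share libraries and their depth, and it is a description only.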

How the data were processed

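Small RNA of BALF EVs was sequenced by the authors in 9 pools, 3 per exposure. Adapters were trimmed, reads were aligned to mm9 and miRNAs and isomiRs were quantified with miRquant 2.0. The authors deposited RPMMM, which is RPM of the reads mapped to miRNAs, for each pool. Replicates are pools of different mice, and no batch is labelled.

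From these values, 1 limma model (version 3.58.1, R 4.3.3) of all 9 pools was made on log2(RPMMM + 1) of the rows above a mean of 50 RPMMM, with an exposure mean each and variances moderated toward a trend with level. The fit was tested on simulated data with normal noise on the log scale. These had no listing minimum, so that the test does not cover rows listed mostly at 0. Reads per pool were estimated from the spacing of low values of rows without an identical copy, between 68.3% and 85.5% of which lay within 0.006 RPMMM of whole reads. Since this was not nearly all, no count test was run. Python 3.11.15 with pandas 2.3.3, scipy 1.17.1 and matplotlib 3.10.9 served for summaries, Wilson intervals and plots. Alternatives changed the pseudocount, filter, scaling, rows, model or pools, 1 at a time. The members, marker lists and tests were chosen with earlier results of these data known. Rows without a shift and the highest isomiR of each hairpin were named with all values, and for miR-1a-3p the 3 mature miRNAs most alike in pattern. The paper names no test for the sequencing data. The ranks by FA pool 3 were added after the values were seen.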

Additional observations from a re-analysis of the deposited data

How the results depend on the processing

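The direction of every fold change of miR-1a-3p and miR-133a-3p_+_1 was kept under each alternative that gave a value, which excludes a mean above 200 RPMMM, median-of-ratios scaling and mature miRNAs only for miR-133a-3p_+_1, except that miR-133a-3p_+_1 did not differ between 2 ppm and 1 ppm O3 (0) with values below 40 RPMMM set to 40 or without 1 ppm O3 pool 3. After 2 ppm O3 against FA, 4 muscle miRNA rows were called. The count was 2 with values below 40 RPMMM set to 40 and 2 after rescaling to a total that left out mir-5115, mir-5109, mir-5105, mir-5102 and mir-2137, where miR-133a-3p_+_1 had a log2 fold change of -6.69, as without rescaling, with an adjusted p of 0.0900 from limma and the cause was not tested. By construction fewer rows were tested, and all of them called, with a mean above 200 RPMMM (2), under median-of-ratios scaling (2), with mature miRNAs only (1) and with the rows of a hairpin summed (2). After 1 ppm O3 the count rose from 0 to 2 with only the exposures compared in the fit and to 2 without the trend of the variance. With each pool left out in turn, the counts lay between 0 and 2 after 1 ppm O3, between 0 and 4 after 2 ppm O3 and between 0 and 2 between the O3 concentrations. miR-1a-3p was called after 2 ppm O3 in 19 of 21 settings and miR-133a-3p_+_1 in 13 of 18. Among all tested rows, 66 were higher and 135 lower after 2 ppm O3, against 87 and 33 under median-of-ratios scaling, and 43 and 26 after that rescaling. After 1 ppm O3, 61 rows were called, against 9 after the same rescaling, and between the concentrations 155, against 81 under median-of-ratios scaling and 50 after rescaling. With mature miRNAs only, 12, 93 and 65 of 230 were called in the 3 comparisons, and with hairpins summed 11, 81 and 59 of 171. Without 1 ppm O3 pool 3, 102 rows were called between the concentrations. No paired analysis was possible because the labels give the pools no shared replicate numbers. The depth of the 2 ppm O3 pools limits any statement on muscle miRNAs below about 37.3 RPMMM.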

Other observations

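Behind miR-1a-3p and miR-133a-3p_+_1, the rows with the next highest ratio of FA pool 3 to the higher of the other FA pools were miR-10b-5p (4.60), miR-145-3p (4.50) and miR-199a-5p (4.26). These were looked up after the values had been seen and were not tested.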
